A study of Homo sapiens with 6 samples.

Results

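Expression of 10 regulators of the passage from G1 into S phase was followed after knockdown of MED12 in 22Rv1 cells. The 10 genes were CCND1, CCND2, CCND3, CDK4, CDK6, CCNE1, CDK2, CDKN1B, RB1 and E2F1, taken by symbol from the 62703 genes counted. Of these 10, 9 were among the 17901 genes that passed the expression filter and were tested. CCND2 did not pass it. The study compared 3 RNA-seq libraries of cells transfected with siCtrl, a pool of non-targeting siRNAs, with 3 libraries of cells transfected with siMED12, a pool of siRNAs against MED12. 22Rv1 is an established human prostate carcinoma line that carries the androgen receptor. All 6 libraries came from this single line, and each transfection used 25 pmol of siRNA 24 h after seeding, with fresh medium after 6 h and harvest on day 3. MED12 is a subunit of the kinase module of Mediator, the complex that links transcription factors to RNA polymerase II.

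D-type cyclins bind CDK4 and CDK6, and the active kinases phosphorylate the retinoblastoma protein RB1, which otherwise holds E2F transcription factors in check. Released E2F factors, E2F1 among them, drive genes for cyclin E and for DNA replication, and cyclin E with CDK2 completes the phosphorylation of RB1. p27, the product of CDKN1B, binds and restrains cyclin E with CDK2. In prostate cells androgen signalling feeds into this circuit, and loss of RB1 is a known event in advanced prostate cancer.

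The libraries held 16136699 to 17012788 counts each, of which 67372 to 85159 fell on the 10 genes. MED12 itself, on chromosome X, was measured at 67.8, 77.7 and 72.6 CPM (counts relative to the TMM-scaled library size) in siCtrl libraries 1, 2 and 3 and at 23.9, 14.97 and 30.1 CPM in siMED12 libraries 1, 2 and 3. The log2 fold change of MED12 was -1.66 (SE 0.23, n = 3 per group, adjusted p = 0.0314 by edgeR's quasi-likelihood test), and each siMED12 library lay below every siCtrl library. MED12 had an adjusted p of 0.0818 without siCtrl library 1, 0.186 without siCtrl library 2, 0.108 without siMED12 library 1 and 0.130 without siMED12 library 2. These omission fits called 0 of all genes in either direction. With the replicate number as a block, the log2 fold change of MED12 was -1.68 (SE 0.10, adjusted p = 1.52e-16 by edgeR's test). All 8 markers of prostate luminal epithelium were measured above the filter, and their summed level was 3122 to 3276 CPM in siCtrl and 2649 to 2809 CPM in siMED12 libraries. The groups did not overlap in this sum, and its part in the results was not tested. Of 5 fibroblast markers 2 were tested, with a sum of 25.5 to 39.0 CPM in siCtrl and 26.0 to 41.8 CPM in siMED12. Of 4 leukocyte markers 1 was tested, and their sum was at most 1.43 CPM with CD3E at 0. Of 3 endothelial markers 0 were tested, and their sum was at most 0.122 CPM with CDH5 at 0. The share of counts on mitochondrially encoded genes ran from 4.43% to 10.1% and was highest in the libraries numbered 3 in both groups. Replicate numbers 1 to 3 are shared by the groups, and libraries of the same number deviated together. The fold change of each tested regulator is therefore given without the replicate number and with it as a block. The unblocked fit was the main test. As these are bulk RNA measurements, fewer cells in a cycle phase and less RNA per cell cannot be told apart.

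With the replicate number as a block, 4 of the 9 tested regulators fell and 1 rose. CDK4, CDK6, CDK2 and E2F1 fell, with mean differences over the replicate numbers of -8.94% (CDK2) to -25.7% (CDK6), and CDKN1B rose by 20.9%. CCND1, CCND3, CCNE1 and RB1 did not pass the test in this fit. The block called 17.1% of all tested genes higher and 16.2% lower. Without the block, 0 of the 9 regulators passed in either direction at an adjusted p of 0.05 by edgeR's quasi-likelihood test, where 0.151% of all genes were called higher and 0.413% lower. At an unadjusted p below 0.05 in that fit, 0 were higher and 3 lower (CDK4, CDK6 and E2F1), against 7.65% and 7.93% of all tested genes. Unblocked, the Wald test of DESeq2 called 2 lower, CDK4 and E2F1, and 0 higher, where it called 2.69% and 1.78% of all tested genes. The 3 siMED12 libraries lay wholly below the 3 siCtrl libraries for 4 regulators (CDK2, CDK4, CDK6 and E2F1), against 10.9% of all tested genes, and wholly above for 0, against 11.2%.

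**Figure D1:**
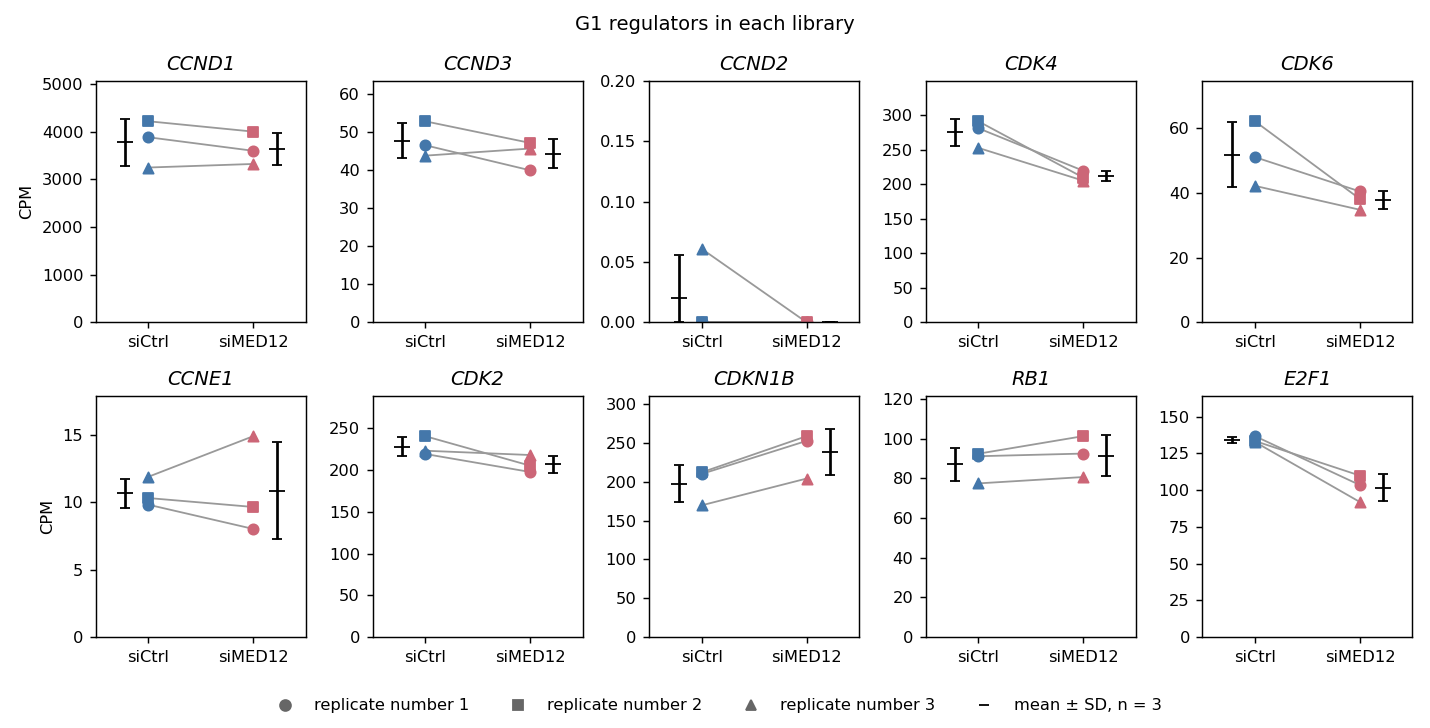
CPM of each of the 10 G1 regulators in each library, with siCtrl in blue and siMED12 in red, a marker shape and a joining line for each replicate number, and bars for the mean ± SD of 3 libraries. CDK4, CDK6, CDK2 and E2F1 lie lower in all 3 siMED12 libraries, the lines of CDKN1B run upward in parallel, and CCND2 is at 0 in 5 of 6 libraries.

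The D-type cyclins are the growth-signal-responsive partners of CDK4 and CDK6. Cyclin D1 was the dominant one: CCND1 (ENSG00000110092.4; GRCh38, chr11:69641156-69654474, plus strand) was measured at 3882, 4217 and 3247 CPM in siCtrl libraries 1 to 3 and at 3597, 3999 and 3322 CPM in siMED12 libraries 1 to 3. Its counts of 53069 to 68403 placed it between rank 5 and rank 12 of all tested genes in every library. The groups overlapped widely, and the library numbered 3 was the lowest of each group. For CCND1 the log2 fold change was -0.06 (SE 0.13, 95% interval -0.35 to 0.23, adjusted p = 0.895). With the block it was -0.05 (SE 0.03, 95% interval -0.12 to 0.02, adjusted p = 0.250). A decrease of more than 0.12 on the log2 scale lay outside the blocked interval, but the unblocked interval reached -0.35. Within numbers the differences were -7.33%, -5.16% and 2.31%. Leaving out replicate number 3 moved the blocked value to -0.09 with an adjusted p of 0.0302, the only one of the omissions under the block at which CCND1 passed.

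CCND3 (ENSG00000112576.13; chr6:41934934-42050357, minus strand), the cyclin D gene best known from blood cells, was at 46.6, 52.9 and 43.9 CPM with siCtrl and at 40.0, 47.2 and 45.8 CPM with siMED12. These groups overlapped too, and as for CCND1 the numbers 1 and 2 were lower with siMED12 and number 3 was higher. CCND3 had a log2 fold change of -0.11 without the block (SE 0.12, 95% interval -0.38 to 0.16, adjusted p = 0.738) and -0.11 with it (SE 0.07, 95% interval -0.25 to 0.03, adjusted p = 0.236). Leaving out 1 library moved the unblocked value of CCND3 to between -0.18 (siMED12 library 2) and -0.03 (siCtrl library 2), and leaving out number 3 moved the blocked value to -0.19. CCND2 (ENSG00000118971.9; chr12:4269771-4305353, plus strand) had 1 count in siCtrl library 3 and 0 in the other 5 libraries. A count of 0 allows up to 3 counts, or 0.175 to 0.190 CPM depending on the library, so no fold change is given for CCND2, and such limits cover counting error only.

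Per kilobase of exonic length, CCND1 made up 99.0% ± 0.0621 (SD, n = 3) of summed D-type cyclin mRNA in siCtrl and 99.0% ± 0.111 in siMED12 cells. The difference of 0.0374 percentage points was smaller than the spread between libraries (exact permutation test, two-sided, p = 0.7, where 0.1 is the smallest value that 3 against 3 allows). The share of CCND3 was 1.04% ± 0.0615 and 1.00% ± 0.111, likewise not separated (exact permutation p = 0.7). CCND1 shares 497 exonic bases with LTO1 on the opposite strand, and the use of strand in counting is not given in the sources used here. LTO1 held 557 to 753 counts against at least 53069 on CCND1.

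CDK4 and CDK6 are the catalytic partners of the D-type cyclins, and both were lower after siMED12. CDK4 (ENSG00000135446.17; chr12:57747727-57756013, minus strand) was at 281, 292 and 253 CPM in siCtrl libraries 1 to 3 and at 220, 210 and 205 CPM in siMED12 libraries 1 to 3. The groups did not overlap, and the siMED12 libraries lay closer together (SD 7.34 CPM) than the siCtrl libraries (SD 20.0 CPM). The log2 fold change of CDK4 was -0.38 (SE 0.09, 95% interval -0.58 to -0.18, adjusted p = 0.102, unadjusted p = 0.00243 by edgeR's test), with decreases in 3 of 3 numbers. Under the block CDK4 fell by 0.38 on the log2 scale (SE 0.04, 95% interval -0.46 to -0.29, adjusted p = 2.89e-09). The DESeq2 Wald test without the block gave CDK4 an adjusted p of 0.0135. CDK4 overlaps TSPAN31, a tetraspanin gene on the opposite strand, over 1369 exonic bases. TSPAN31 had 443 to 547 counts with siCtrl and 525 to 663 with siMED12, against 3281 to 4731 on CDK4, and its difference ran the other way (log2 fold change 0.20 with the block, adjusted p = 0.0439, and adjusted p = 0.555 without it).

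CDK6 (ENSG00000105810.10; chr7:92604921-92836573, minus strand) was at 51.0, 62.1 and 42.1 CPM with siCtrl and at 40.4, 38.1 and 34.7 CPM with siMED12. The groups were separate by a small margin, since siCtrl library 3 and siMED12 library 1 lay close to each other. Without the block CDK6 had a log2 fold change of -0.45 (SE 0.15, 95% interval -0.80 to -0.11, adjusted p = 0.20), which became -0.30 without siCtrl library 2 and -0.58 without siCtrl library 3. With the block CDK6 fell by 0.45 (SE 0.07, 95% interval -0.59 to -0.30, adjusted p = 6.75e-06), and the differences within numbers were -20.8%, -38.7% and -17.5%. CDK6 contributed 4.51% ± 0.545 (SD, n = 3) of summed CDK4 and CDK6 mRNA per kilobase with siCtrl and 4.31% ± 0.182 with siMED12 (difference -0.199 percentage points, exact permutation p = 0.9). The ratio of CCND1 to summed CDK4 and CDK6 per kilobase was 8.57, 8.92 and 8.004 with siCtrl and 10.2, 11.8 and 10.1 with siMED12. This ratio and those below were chosen after the values were seen and carry no test.

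Of the 10 regulators, 7 have a promoter window in the RefSeq table (GRCh38.p14, 250 bases before to 50 after a start site), and those of the genes that moved most are shown because their letters differ in the motifs they hold. CCND1, CCND2 and CDK2 are not in the table. The RB1 window (chr13:48476200-48476499, plus strand) lies inside the gene, which is annotated from 48303744, so the sequence at that gene start was not searched. The windows of CDK4, annotated to 57756013 on the minus strand, of CDKN1B, annotated from 12685498, and of CCND3 also lie inside the annotated gene. The sequence at the outermost annotated start of these genes was not searched either. Capitals mark E-boxes (CACGTG, the same on both strands), bound by MYC and related factors, and E2F motifs (TTTCCCGC, TTTCGCGC, TTTGCCGC or TTTGGCGC on either strand). The windows of CDK4 (chr12:57752261-57752560, minus strand), CDK6 (the first of its 2 windows, chr7:92836524-92836823, minus strand), E2F1 (chr20:33686336-33686635, minus strand) and CDKN1B (chr12:12717118-12717417, plus strand) read, 5′ to 3′:
CDK4: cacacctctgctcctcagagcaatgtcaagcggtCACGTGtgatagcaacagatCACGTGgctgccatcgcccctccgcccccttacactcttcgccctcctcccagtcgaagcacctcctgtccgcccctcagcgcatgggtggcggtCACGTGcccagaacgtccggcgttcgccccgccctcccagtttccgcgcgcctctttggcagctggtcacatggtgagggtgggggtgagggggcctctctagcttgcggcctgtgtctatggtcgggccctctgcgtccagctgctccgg
CDK6: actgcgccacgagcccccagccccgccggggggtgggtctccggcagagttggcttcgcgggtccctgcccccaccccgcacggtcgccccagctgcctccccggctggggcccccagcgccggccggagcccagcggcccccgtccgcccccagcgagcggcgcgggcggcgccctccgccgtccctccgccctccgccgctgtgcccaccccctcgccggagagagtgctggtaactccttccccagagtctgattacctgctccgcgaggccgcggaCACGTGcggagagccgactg
E2F1: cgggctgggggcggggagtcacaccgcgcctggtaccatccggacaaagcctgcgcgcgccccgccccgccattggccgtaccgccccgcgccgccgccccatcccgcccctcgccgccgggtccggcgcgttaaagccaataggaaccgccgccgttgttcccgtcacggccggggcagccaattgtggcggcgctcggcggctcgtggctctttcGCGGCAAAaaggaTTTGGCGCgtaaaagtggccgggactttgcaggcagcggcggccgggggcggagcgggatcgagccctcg
CDKN1B: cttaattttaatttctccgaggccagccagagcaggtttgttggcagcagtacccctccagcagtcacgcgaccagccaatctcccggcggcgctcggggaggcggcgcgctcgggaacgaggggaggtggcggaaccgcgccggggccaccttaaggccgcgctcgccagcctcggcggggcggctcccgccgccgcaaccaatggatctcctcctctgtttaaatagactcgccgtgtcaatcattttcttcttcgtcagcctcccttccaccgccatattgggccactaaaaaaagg

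The CDK4 window holds 3 E-boxes, which begin at positions -216, -196 and -101 from the start site. An E-box is held by 7.26% of the 35116 windows listed, and 3 or more by 0.094%. CDK6 has 1 E-box, at position 31 after its start. E2F1 holds 2 E2F motifs, at -33 on the minus strand and at -20 on the plus strand relative to the direction of transcription, and 3.31% of all windows hold any. The CDKN1B window holds neither motif. Neither motif is found in the windows of CCND3, CCNE1 and RB1 or in the second window of CDK6. The cell cycle homology motif TTTGAA, which the MuvB core binds, was searched on both strands too, is in none of the 10 windows of the 7 regulators, and is in 15.2% of all windows. A match describes the letters only, and no binding was measured in these libraries.

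Cyclin E and CDK2 act after the D-type kinases. CCNE1 (ENSG00000105173.14; chr19:29811991-29824312, plus strand), which encodes cyclin E1, was low, at 9.82, 10.3 and 11.9 CPM with siCtrl and 8.02, 9.65 and 14.9 CPM with siMED12. The groups overlapped, and siMED12 library 3 stood above the other 5 libraries. With only 135 to 238 counts per library, the interval of the log2 fold change was wide, from -0.54 to 0.59 around 0.02 (SE 0.25, adjusted p = 0.979) and from -0.27 to 0.27 around 0.00 with the block (SE 0.13, adjusted p = 0.989), and the sign turned with the processing. Within numbers CCNE1 differed by -18.3%, -6.43% and 25.3%. CCNE2, the gene of the second E-type cyclin, was at 41.4 CPM ± 10.0 with siCtrl and 38.9 CPM ± 10.5 with siMED12 (SD, n = 3), with a log2 fold change of -0.10 under the block (adjusted p = 0.317) and an adjusted p of 0.902 without it.

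CDK2 (ENSG00000123374.11; chr12:55966781-55972789, plus strand) was at 219, 240 and 223 CPM in siCtrl libraries 1 to 3 and at 198, 205 and 218 CPM in siMED12 libraries 1 to 3. The groups did not overlap, but the lowest siCtrl and the highest siMED12 library were nearly equal. The log2 fold change of CDK2 was -0.14 (SE 0.09, 95% interval -0.33 to 0.06, adjusted p = 0.498). Under the block CDK2 fell by 0.14 (SE 0.04, 95% interval -0.23 to -0.05, adjusted p = 0.0122), the smallest of the 5 blocked changes. That call was lost with scaling to library size alone (adjusted p = 0.0631) and without replicate number 2 (adjusted p = 0.0513). CDK2 shares 654 exonic bases with genes on the opposite strand, among them PMEL, which had 16 to 50 counts.

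CDKN1B (ENSG00000111276.12; chr12:12685498-12722369, plus strand), the gene of the CDK inhibitor p27, was the regulator that rose. Its level was 210, 212 and 170 CPM with siCtrl and 253, 259 and 204 CPM with siMED12. The groups overlapped, because siMED12 library 3 lay below siCtrl libraries 1 and 2, yet within numbers the increases were 20.3%, 22.0% and 20.3%. Its log2 fold change was therefore 0.27 in both fits but with unequal errors: SE 0.13 (95% interval -0.02 to 0.57, adjusted p = 0.353) without the block, and SE 0.04 (95% interval 0.19 to 0.36, adjusted p = 1.53e-06) with it. The unblocked value for CDKN1B was 0.17 without siCtrl library 3 and 0.38 without siMED12 library 3, and the blocked value stayed between 0.24 and 0.28 with a number left out. The ratio of CDKN1B to CDK2 per kilobase was 0.402, 0.370 and 0.319 in siCtrl libraries 1 to 3 and 0.537, 0.530 and 0.393 in siMED12 libraries 1 to 3, on average 1.33 times higher within numbers.

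**Figure D2:**
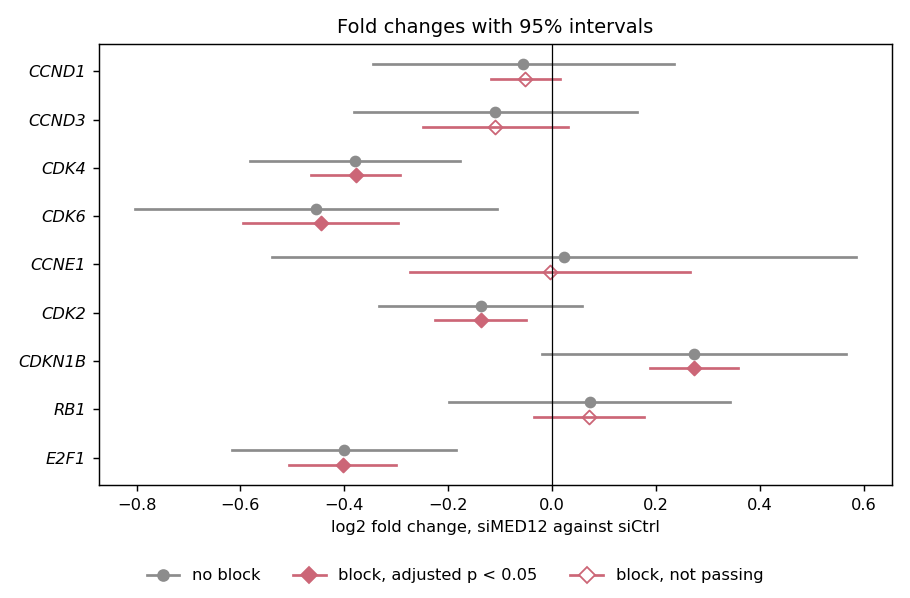
Log2 fold change of siMED12 against siCtrl with its 95% interval for the 9 tested regulators, without the block (grey) and with it (red, filled where the adjusted p was below 0.05). Estimates nearly coincide between the fits, while the blocked intervals are narrower and leave out 0 for CDK4, CDK6, CDK2, CDKN1B and E2F1.

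RB1 (ENSG00000139687.16; chr13:48303744-48599436, plus strand), the pocket protein on which both kinase pairs act, was at 91.1, 92.4 and 77.4 CPM with siCtrl and 92.4, 101 and 80.6 CPM with siMED12. The groups overlapped and both had their lowest value in the library numbered 3. RB1 had a log2 fold change of 0.07 (SE 0.12, 95% interval -0.20 to 0.34, adjusted p = 0.838), and of 0.07 with the block (SE 0.05, 95% interval -0.04 to 0.18, adjusted p = 0.323). RB1 mRNA was detected in every library, with at least 1270 counts.

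E2F1 (ENSG00000101412.13; chr20:33675477-33686385, minus strand), an activator of S phase genes that itself carries E2F motifs in its promoter, was at 137, 133 and 133 CPM in siCtrl libraries 1 to 3 and at 103, 110 and 91.9 CPM in siMED12 libraries 1 to 3. The siCtrl libraries were nearly equal, and all siMED12 libraries lay below them. The log2 fold change was -0.40 (SE 0.09, 95% interval -0.62 to -0.18, adjusted p = 0.104, unadjusted p = 0.00256 by edgeR's test), and the DESeq2 Wald test without the block gave an adjusted p of 0.0226. With the block E2F1 fell by 0.40 (SE 0.05, 95% interval -0.51 to -0.30, adjusted p = 3.59e-08), with differences of -24.4%, -17.6% and -30.8% within numbers. E2F1 and RB1 stood in a ratio of 3.59, 3.46 and 4.10 per kilobase with siCtrl and of 2.68, 2.60 and 2.73 with siMED12.

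The regulators spanned a wide range of levels. In CPM per kilobase of exonic length, siCtrl means were 794 ± 103 for CCND1, 89.0 ± 6.47 for CDK4, 58.5 ± 2.92 for CDK2, 49.9 ± 0.788 for E2F1, 21.3 ± 2.58 for CDKN1B, 13.5 ± 1.29 for RB1, 8.30 ± 0.806 for CCND3, 4.34 ± 0.439 for CCNE1 and 4.23 ± 0.816 for CDK6 (SD, n = 3). Neighbours in this order were separated in every siCtrl library value except CCNE1 and CDK6, whose ranges overlapped. CCND1 ranked 36 of the 17881 tested genes with an exonic length, CDK4 ranked 436 and CDK6 ranked 8753. On this scale CDK6 lay far below CDK4, with which it shares the D-type cyclins. The length takes in all annotated exons, 12239 bases for CDK6, 3094 for CDK4 and 2461 for CCNE1, whichever transcripts the cells express. Undivided by length, siCtrl means were 51.7 CPM for CDK6, 275 CPM for CDK4 and 10.7 CPM for CCNE1. The same limit holds for the shares and ratios per kilobase.

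**Figure D3:**
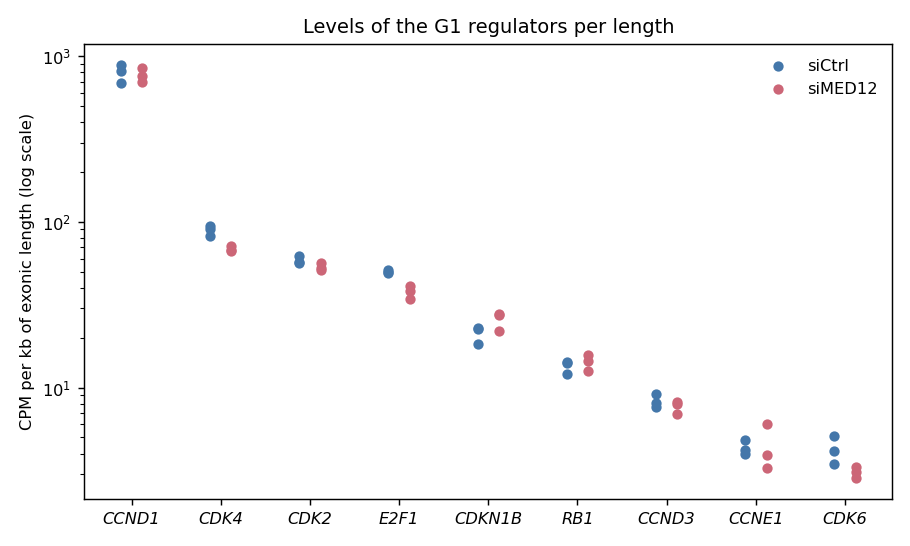
Level of each regulator in each library in CPM per kilobase of exonic length, on a logarithmic axis, with siCtrl in blue and siMED12 in red. CCND1 (siCtrl mean 794) stands above all others, and CCNE1 and CDK6 (4.34 and 4.23) share the lowest place among the 9 tested genes.

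The regulators differed in whether they followed the treatment or the replicate number. Treatment took 88.5% of the sum of squares of log2 CPM for CDK4 and 87.4% for E2F1, then 61.7% for CDK6 and 58.3% for CDK2, against a median of 20.5% over all tested genes. The replicate number took 91.7% for CCND1, 89.6% for RB1 and 78.3% for CCNE1, against a median of 56.8%. CDKN1B was divided between both, with 45.0% for treatment, 54.9% for replicate number and 0.0550% left over. A test of the replicate number in the blocked fit, chosen after the values were seen, was passed by 5 regulators (CCND1, adjusted p = 1.04e-07; CDKN1B, 8.86e-07; RB1, 0.000747; CDK6, 0.00372; CCNE1, 0.00703), where 47.1% of all tested genes passed. In the libraries numbered 3, in which the mitochondrial share was highest, CCND1, RB1, CDKN1B, CDK4, CDK6 and E2F1 had the lowest value of their group and CCNE1 the highest. The part of the mitochondrial share in these levels was not tested.

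**Figure D4:**
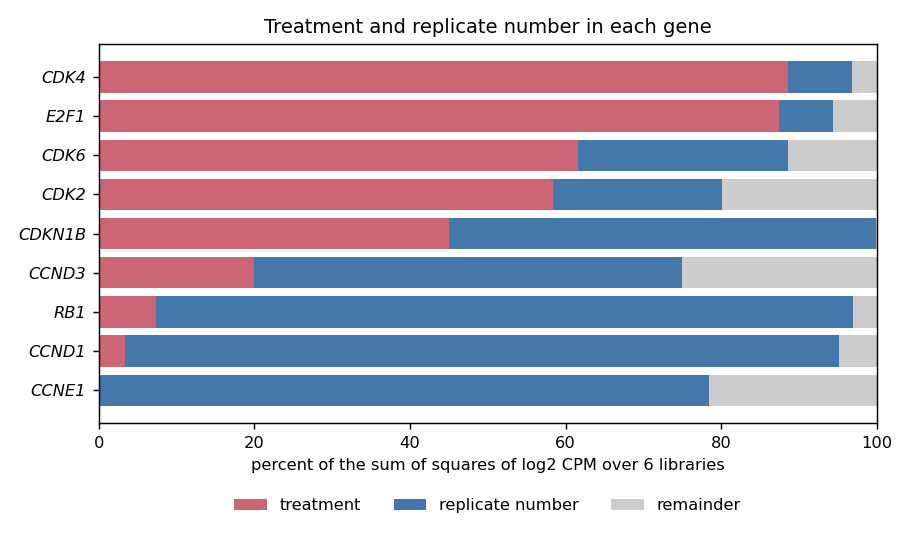
Share of the sum of squares of log2 CPM over 6 libraries that goes with treatment (red), replicate number (blue) and the remainder (grey) for each tested regulator, in percent. CDK4 and E2F1 are led by treatment (88.5% and 87.4%), and CCND1, RB1 and CCNE1 by replicate number (91.7%, 89.6% and 78.3%).

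Genes whose profile over the 6 libraries was nearest to the regulators of largest change were named by a fixed rule. By Euclidean distance of centred log2 CPM among 10670 genes, CDK4 was closest to HPRT1 (0.0452), a purine salvage enzyme, and SELENOI (0.0532), against a median distance of 0.628. CDK6 was closest to HOMER1 (0.143) and PNPT1 (0.155), with a median of 0.761. E2F1 was closest to MTX1P1 (0.0801), a pseudogene whose counts are uncertain because reads can be shared with its parent gene, and to DFFA (0.0953), with a median of 0.666. These distances describe 6 libraries and say nothing of shared control.

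Among other genes of the G1/S pathway, lists were drawn up by function, and 62 of 63 listed genes were tested. Without the block 1 gene of the 62 passed, E2F2, which was lower, and with the block 36 were lower and 6 higher, where 16.2% of all tested genes were called lower and 17.1% higher. The median log2 fold change of the 62 genes was -0.19, against 0.02 over all tested genes. At an unadjusted p below 0.05 without the block, 13 of the 62 were lower and 2 higher, against 7.93% and 7.65% of all tested genes.

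Of 6 further CDK inhibitor genes, 0 passed without the block. Under it CDKN2C, the gene of the CDK4 and CDK6 inhibitor p18, rose by 0.30 on the log2 scale (adjusted p = 3.03e-04), and CDKN1A, the gene of p21, fell by 0.24 (adjusted p = 1.33e-04). The other 4 did not pass, and the median of the list was -0.01. Over all tested genes the block called 16.2% lower and 17.1% higher. With 1 of 6 called in each direction, the list lay near those shares, and no result about the list is read from it. Under the block the gene of p27 was higher and that of p21 lower. Without the block neither passed (adjusted p = 0.353 for CDKN1B and 0.697 for CDKN1A by edgeR's test), and the groups of both genes overlapped.

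The pocket proteins, E2F and DP factors held the gene of largest change. E2F2, an activator E2F like E2F1, was at 130 CPM ± 2.45 with siCtrl and 83.8 CPM ± 3.39 with siMED12 (SD, n = 3), with differences of -31.2%, -36.8% and -38.1% in numbers 1, 2 and 3 and a log2 fold change of -0.63 (SE 0.08, adjusted p = 0.0297 by edgeR's test without the block). Its call was lost with siCtrl library 1 or 2 or siMED12 library 1 or 2 left out, as 0 of all genes passed in those fits. With the block the log2 fold change of E2F2 was -0.63 (SE 0.05, adjusted p = 5.94e-13 by edgeR's test). Under the block 5 of 11 genes of this list fell and 3 rose, against 16.2% and 17.1% of all tested genes. RBL2, the gene of the pocket protein p130 that is prominent in resting cells, was at 149 CPM ± 11.9 with siCtrl and 178 CPM ± 18.6 with siMED12 and rose under the block (log2 fold change 0.26, adjusted p = 1.36e-05). RBL2 was singled out after its values were seen, because it is the relative of RB1 in the list that passed. Without the block RBL2 had an adjusted p of 0.296 by edgeR's test. RBL1, the other relative of RB1 in the list, did not pass under the block (log2 fold change -0.15, adjusted p = 0.227).

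Genes of the MuvB and DREAM complexes, which silence or activate cell cycle genes, fell in 3 of 6 cases under the block and rose in 0. The block called 16.2% of all tested genes lower and 17.1% higher. MYBL2, a transcription factor of cycling cells, fell by 0.38 (adjusted p = 1.07e-07) and LIN52 fell by 0.28 (adjusted p = 0.0232). Without the block 0 of the 6 passed, with an adjusted p of 0.131 for MYBL2 and 0.665 for LIN52. Of 6 tested other cyclins and kinase activators, 3 fell and 0 rose under the block, against the same shares of all tested genes. CDC25A, the phosphatase that activates CDK2, fell by 0.39 (adjusted p = 2.03e-04), and CCNH, the cyclin of the CDK-activating kinase, fell by 0.26 (adjusted p = 0.00217). Unblocked, 0 of these 6 passed, and the adjusted p was 0.652 for CDC25A, whose groups overlapped, and 0.310 for CCNH.

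Among 9 genes for the turnover of G1 regulators, 3 fell and 1 rose under the block, and the median was 0.04. The block called 16.2% of all tested genes lower and 17.1% higher. The 2 largest decreases were in CKS1B, which fell by 0.34 (adjusted p = 3.50e-05), and SKP2, which fell by 0.26 (adjusted p = 3.94e-04). SKP2 is the F-box protein that, with CKS1B as its cofactor, marks p27 for degradation. FZR1, an activator of the anaphase-promoting complex in G1, rose by 0.20 (adjusted p = 0.00594). Without the block 0 of the 9 passed, and 2 were lower at an unadjusted p below 0.05, a threshold that 7.93% of all tested genes passed in that direction.

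E2F-driven replication genes were the list with the most uniform direction: 23 of 24 had a negative log2 fold change under the block, 21 fell and POLE rose by 0.10 (adjusted p = 0.0460). Of all 17901 tested genes, 8504 had a negative value under the block, 16.2% were called lower and 17.1% higher. PCNA, the sliding clamp of DNA polymerases, fell by 0.50 (adjusted p = 2.40e-12) and had an adjusted p of 0.0515 without the block. MCM10, a replication initiation factor, fell by 0.36 (adjusted p = 7.62e-06). Without the block 0 of the 24 passed and 8 were lower at an unadjusted p below 0.05, as 7.93% of all tested genes were, and the median was -0.21. Of the 24 genes 21 have a promoter window, and 14 of these 21 (66.7%) hold an E2F motif as defined above, against 3.99% of all genes in the table. The list was written for genes known to respond to E2F, so that share describes how it was drawn up.

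**Figure D5:**
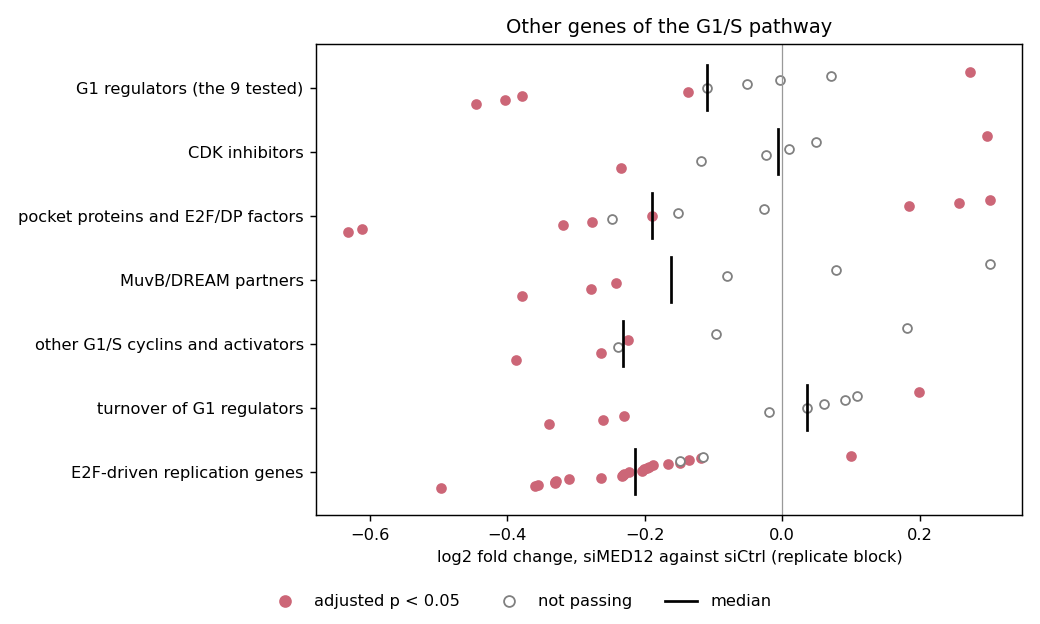
Log2 fold change of siMED12 against siCtrl in the fit with the replicate block for each gene of the 9 tested regulators and of the 6 pathway lists (filled where the adjusted p was below 0.05, with a bar at the median). Points of the E2F-driven replication genes lie below 0 except POLE, while CDK inhibitors and turnover genes spread to both sides with medians of -0.01 and 0.04.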

How the data were processed

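A service provider captured poly(A) RNA of the 22Rv1 cells and made strand-specific libraries. The authors aligned and counted reads with Rsubread on GRCh38 with a Gencode annotation and deposited raw counts per gene. The study's methods name an earlier Gencode release than the one used here for lengths. The version of Rsubread, the use of strand and the handling of reads with several matches are not given in the sources used here. The deposited log2 CPM values were reproduced from the counts to within 4.96e-09. They hold no batch correction, although a heatmap of the study is called batch-corrected in its legend.

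Counts were tested with edgeR 4.0.16 (expression filter, TMM, quasi-likelihood F-test) in R 4.3.3, with treatment as the sole term, since the study's methods name no block. P-values were two-sided and adjusted by Benjamini-Hochberg over 17901 genes. Groups and replicate numbers came from the titles. Across genes, deviations from the group mean correlated at 0.532, 0.373 and 0.643 for numbers 1, 2 and 3, and at -0.460 to -0.0233 where the numbers differed. Because deviations from a group mean cancel out within the group, positive same-number values make those of differing numbers negative on balance. Libraries were treated as paired by number because of the same-number correlations. This pairing is read from the data, since the labels do not say what a number shares. The study's methods speak of biological replicates for its experiments in general, and the labels add nothing for these libraries. P-values measure the spread between libraries, but edgeR draws the variance of each gene toward that of other genes. A blocked p-value therefore does not rest on the 3 replicate numbers of that gene alone. The remainder SD of log2 CPM was 0.163 for CDK6 and 0.00827 for CDKN1B, while their blocked SEs were 0.07 and 0.04. All pairs of libraries within a group differed by more than sampling noise (chi-square per degree of freedom 11.2 to 45.9).

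Exonic lengths and overlaps came from Gencode 44 and promoter windows from RefSeq. The regulators and lists were chosen with earlier results of these data known. All 10 regulators are named, and from each list up to 2 genes of largest increase and decrease among those called with a mean of at least 10 CPM, taken from the blocked fit where the unblocked one called none. CCNE2, RBL2 and RBL1 were added to these. Nearest profiles were sought for the 3 regulators of largest change. DESeq2 1.42.0, limma 3.58.1 on the deposited log2 CPM, other scalings and filters, and the omission of libraries were tried as alternatives. Scripts were tested on simulated data. Protein sequences were not analysed here.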

Additional observations from a re-analysis of the deposited data

How the results depend on the processing

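Over 189 alternative values for the 9 tested regulators, 135 kept direction and call, 41 gained a call and 13 turned sign. The unblocked fit called 0 of the 9, so that no call could be lost from it. With the replicate block, which uses the pairing by number, 4 regulators were lower and 1 higher against 0 and 0 without it. Of all tested genes the block called 16.2% lower and 17.1% higher, against 0.413% and 0.151% without it. The same counts, 4 and 1, came with DESeq2 size factors, the DESeq2 Wald test or limma under the block, and 3 and 1 with scaling to library size alone under the block. In that order, these fits called 3069, 2063, 2907 and 2413 of 17901 genes lower and 2960, 1780, 3077 and 3807 higher. Without replicate number 1, 2 or 3 under the block 3 to 5 regulators were lower and 1 higher. Those omissions called 2578, 2654 and 2579 of 18113, 18290 and 17867 fitted genes lower, and 2070, 2199 and 2375 higher. Without the block the DESeq2 Wald test called 2 regulators lower, where it called 2.69% of all tested genes lower. The omission of any 1 library without the block left 0 regulators called, in fits that called 0 of all genes without siCtrl 1, siCtrl 2, siMED12 1 or siMED12 2. Pathway genes called lower numbered 2 with DESeq2 size factors, 5 with the DESeq2 Wald test and 36 with the replicate block, against 1, and 6 were called higher with the block, against 0. Among all tested genes the calls lower were 80, 482 and 2908, against 74, and the calls higher with the block 3058, against 27.

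CCNE1 turned to -0.0199 with limma with or without the block, -0.0033 with the block, -0.0121 with the block and DESeq2 size factors and -0.0212 with the block and the DESeq2 Wald test, and ranged from -0.27 to 0.18 with a library or number left out. CCND1 ranged from -0.16 to 0.03 and RB1 from -0.03 to 0.16 in such omissions. The values at which the sign turned were -0.05, -0.00016, -0.27 and -0.19 for CCNE1, 0.0307 and 0.00773 for CCND1 and -0.0064 and -0.0283 for RB1. With 1 library left out, the difference in the CDK6 share ranged from -0.434 to 0.0997 percentage points, positive without siCtrl 2. Those of CCND1 and CCND3 ranged from -0.00746 to 0.0996 and from -0.0992 to 0.00783, with the sign turned without siMED12 1. The cause was not tested. Library size alone moved the median of all genes from 0.02 to 0.06 and the genes called without the block from 27 higher and 74 lower to 31 and 49. Calls among all genes without the block rose to 186 and 290 with the weakest filter, which tested 34030 genes, and to 319 and 482 with the DESeq2 Wald test. CCNE1 with 135 to 238 counts and CCND2 with at most 1 set the limits of depth.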
